A study of Mus musculus with 8 samples.

Results

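Induction of TCF-1 in NIH-3T3 fibroblasts was followed across all expressed genes. NIH-3T3 is an established mouse embryonic fibroblast line that lies outside the blood lineages. The comparison took 4 of the 8 RNA-seq libraries of a series on TCF-1 and genome folding, chosen by their labels: 2 libraries of normal cells, labelled wild type and untreated, and 2 of cells in which Tcf7, the gene of TCF-1, was induced. Of the 53465 genes in each count file, 18185 had enough reads to be tested. The file headers carry the words 72 hours, merged, Cas9, empty LRG21 and pIND21 P33 for all 4 libraries, and doxycycline for the induced ones only, so the normal cells appear to carry the same constructs without the drug. An effect of doxycycline and one of TCF-1 cannot be told apart here. The sources used here do not say what these construct names mean, which promoter drives Tcf7, or whether the cells are 1 clone or a pool. Separate cultures are not named for the 2 libraries of either group. The p-values below therefore reflect the spread among 4 libraries, and that spread may be technical. Measured against counting error, the spread within a pair (chi-square per degree of freedom) was 1.158 for the normal libraries and 1.913 for the induced ones. The fitted coefficient of variation between libraries, beyond counting error, was 2.414%.

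TCF-1 belongs to the TCF/LEF family of HMG-box DNA-binding proteins. In the thymus it is switched on by Notch signals and opens chromatin at T cell genes, and its long isoforms bind beta-catenin, the effector of Wnt signalling. Fibroblasts make little of it. They answer interferons and bacterial products with 2 well-known programmes. Interferons act through STAT and IRF factors, which bind interferon-stimulated response elements (ISRE) in the promoters of antiviral genes, while Toll-like receptors and interleukin 1 act through NF-kB on chemokines, interleukin 6 and acute phase proteins.

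Totals lay between 13850213 and 17523677 counts per library, and the 10 highest genes took 7.236% to 7.766% of them. Levels are given as CPM, each library's counts scaled to its size by TMM, and differences as log2 fold changes, induced minus normal, with their standard error (SE). Adjusted p-values are those of the quasi-likelihood test of edgeR, adjusted over all tested genes by the Benjamini-Hochberg method, and rose or fell means an adjusted p under 0.05. By that rule 3361 genes rose (18.5% of those tested) and 3332 fell (18.3%). The counts in gene lists below are to be read beside these shares. Both shares climbed with level. Of tested genes averaging at least 66.3698 CPM, 27.5% rose and 35% fell. Of those averaging at most 1.46532 CPM, 5.03% rose and 6.98% fell. No list was compared with genes of like level. A gene low in both normal libraries had enough reads to be tested only through the induced ones, so it could hardly come out lower. Oas1a, Oas2, Oas3, Saa1, Ifitm1, Ccl11 and Csf3 are such genes and count in the lists below. The reverse holds for genes low in both induced libraries, such as Grem1. A stricter test, against a change of 1.5-fold, called 480 higher (2.64%) and 437 lower (2.4%). Rises reached further than falls: 128 called genes rose at least 4-fold and 41 fell as far, and 19 rose at least 16-fold against 1 that fell as far. No molecular identifiers mark copies of 1 fragment, so the intervals and floors given for counts hold for counting error alone.

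Tcf7 (chromosome 11, 52252371 to 52283014, minus strand, GRCm38) stood at 14.5 and 14.6 CPM in the normal libraries and 946 and 972 CPM in the induced ones. This 65.8-fold rise fits the labels of all 4 libraries (log2 fold change 6.04, SE 0.05, adjusted p = 1.16e-51). Its transcript was present in normal cells at a low level, and counts per gene do not tell the isoform. The fibroblast identity of the cells was checked on 16 genes, of which 15 were tested. Col1a2, a chain of type I collagen, was at 6124 ± 127 CPM without and 5989 ± 4.67 CPM with induction (mean ± SD, n = 2 libraries a group), with a log2 fold change of -0.03 (adjusted p = 0.392). Within that list 5 genes rose, Col5a1 most (0.85), and 7 fell, among them the mesenchymal factor gene Twist1 (-0.70) and Vim (-0.49), the gene of vimentin. The summed level of the list, which counts abundant collagens most, went from between 30933 and 31583 CPM to between 28703 and 28781 CPM. Markers of other cell types differed in level. Of 28 T lineage genes 7 were tested, and 22 stayed under 1 CPM in every library. Cd3e, a chain of the T cell receptor complex, was at 5.85 ± 0.395 CPM without and 6.37 ± 0.172 CPM with induction. Epcam, an epithelial marker, lay under 1 CPM in all 4 libraries, and Ptprc (CD45), Adgre1, Pecam1, Cdh5 and Myod1 had too few reads to be tested. Over the marker lists of T cells, leukocytes, epithelium, endothelium, fat and muscle, 5 of the 32 tested genes rose and 2 fell. Cd14 (1.24) and Lpl (0.99), a lipase of fat and other cells, rose and Fabp4 (-0.81) fell in every setting. Krt14 lost its call in DESeq2, and Cd68 (0.51) and Cd36 (-1.24) lost theirs there and also on leaving out normal library 1 (0.45 and -1.10), normal library 2 (0.59 and -1.38) or induced library 2 (0.45 and -0.86). The summed adipocyte markers went from between 197 and 198 CPM to between 359 and 366 CPM, most of it Lpl, at 174 and 176 CPM in the normal libraries and 345 and 350.2 CPM in the induced ones. The summed leukocyte markers went from 24.5 to 26.3 CPM in normal libraries to 34.3 to 34.9 CPM in induced ones, and the part of other cells in the results below was not tested. In bulk RNA, fewer cells that express a gene and less of its RNA per cell cannot be told apart.

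**Figure D1:**
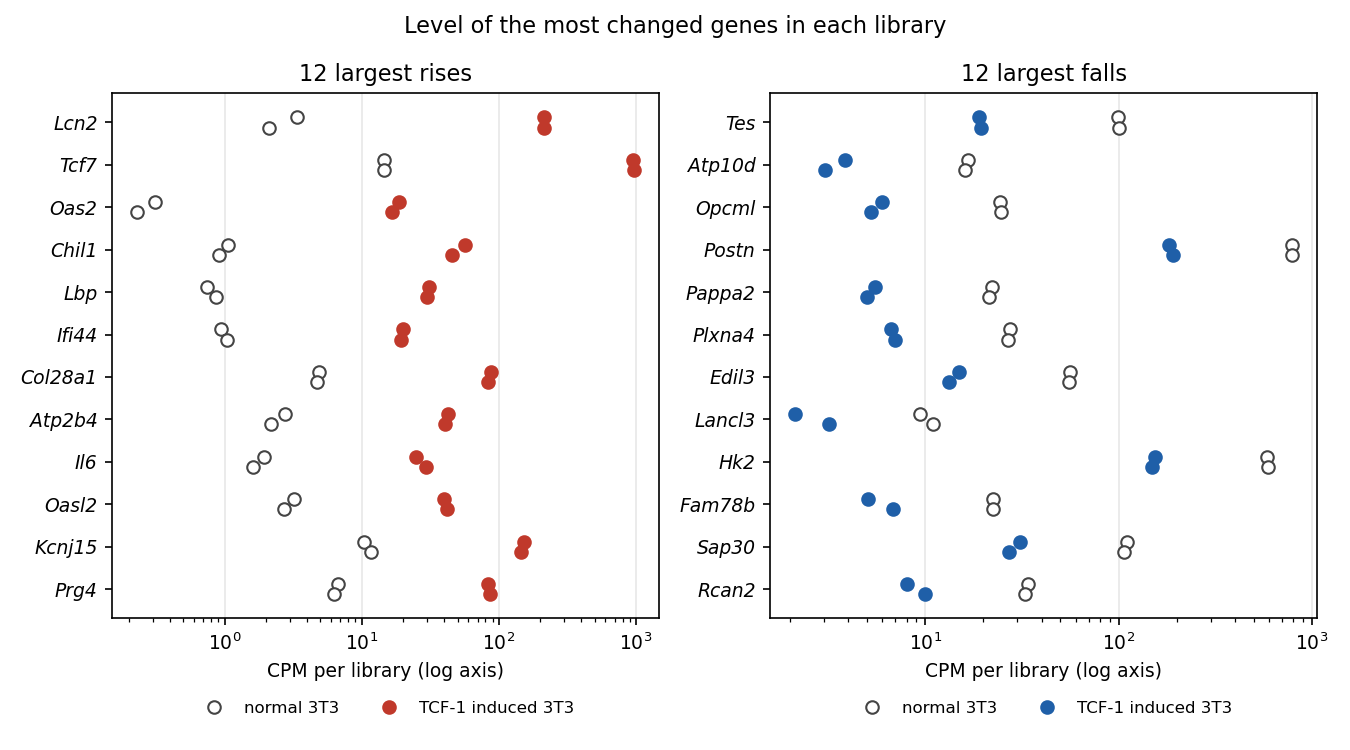
CPM in each library (log axis) for 24 called genes averaging 5 CPM or more, the 12 that rose most and the 12 that fell most; open points are the 2 normal libraries and filled points the 2 induced ones. Only called genes without overlap between the groups could be picked, so the gap between induced and normal points follows from that choice.

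Among genes averaging 5 CPM or more, those that rose most beside Tcf7 include genes of secreted and antiviral proteins. Lcn2 (chromosome 2, 32384633 to 32388252, minus strand), the gene of lipocalin 2, which binds bacterial siderophores, was at 3.38 and 2.13 CPM in the normal libraries and 213 and 213 CPM in the induced ones (log2 fold change 6.28, SE 0.09, adjusted p = 8.57e-43). Oas2 (chromosome 5, 120730333 to 120749853, minus strand), which makes a short RNA messenger when it meets double-stranded RNA, was at 0.313 and 0.230 CPM in the normal libraries and 18.7 and 16.7 CPM in the induced ones (log2 fold change 6.01, SE 0.23, adjusted p = 1.71e-25). Both genes were low in normal cells and high in both induced libraries, with no overlap. Chil1, a chitinase-like secreted protein, rose from 0.991 ± 0.102 to 51.1 ± 7.90 CPM and Lbp, which carries bacterial lipopolysaccharide to its receptors, from 0.806 ± 0.0785 to 30.5 ± 0.972 CPM. The others of the 12 largest rises were Ifi44 (4.30), Col28a1 (a collagen, 4.16), Atp2b4 (a calcium pump of the plasma membrane, 4.07), Il6 (3.93), Oasl2 (3.80), Kcnj15 (an inwardly rectifying potassium channel, 3.76) and Prg4 (lubricin, a joint lubricant, 3.70).

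At the same level, the deepest falls included genes of adhesion, matrix and metabolism and several of other roles. Tes, whose product sits at focal adhesions, was at 99.04 and 101 CPM in the normal libraries and 18.97 and 19.3 CPM in the induced ones (log2 fold change -2.39, SE 0.07, adjusted p = 2.6e-31). Postn, the gene of the matrix protein periostin, was at 789.8 and 792 CPM in the normal libraries and 183 and 192 CPM in the induced ones (log2 fold change -2.08, SE 0.04, adjusted p = 5.06e-39). For both genes the induced libraries lay far below both normal ones. The other 10 were Atp10d (a lipid flippase, -2.24), Opcml (an IgLON adhesion protein, -2.11), Pappa2 (a protease of IGF-binding proteins, -2.05), Plxna4 (a semaphorin receptor, -1.99), Edil3 (an integrin ligand, -1.98), Lancl3 (-1.97), Hk2 (hexokinase 2, -1.96), Fam78b (-1.93), Sap30 (a Sin3 deacetylase subunit, -1.91) and Rcan2 (a calcineurin regulator, -1.91). None of these 24 rises and falls lost its call in any of the 11 alternative settings. The 24 were picked as the largest called changes in these same libraries, so that outcome was nearly fixed by the choice.

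**Figure D2:**
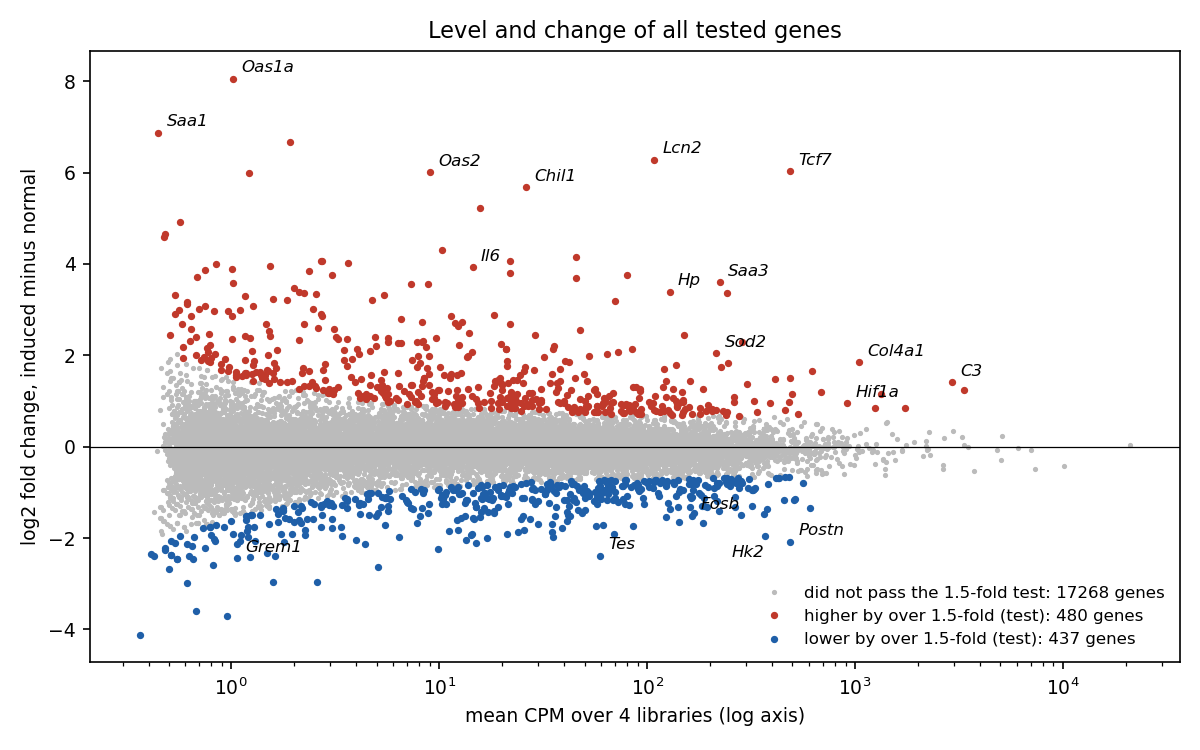
Mean CPM over the 4 libraries (log axis) against the log2 fold change of all 18185 tested genes; red and blue points passed the test against 1.5-fold (480 higher, 437 lower). The rises reach further from 0 than the falls; the fitted values of Oas1a and Saa1, which had 0 counts in both normal libraries, depend on the model's prior and are no bounds.

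Antiviral genes rose as a group. Over 7 interferon lists with 115 tested genes, 95 rose and 3 fell, with a median log2 fold change of 1.05, beside a median of 0.00 over all tested genes. Of 7 tested Oas synthetase genes, 6 rose and Oasl1, at 1.27 ± 0.246 CPM without and 1.33 ± 0.0521 CPM with induction, did not pass, with a list median of 3.80. Oas1a had 0 counts in both normal libraries and 42 and 22 in the induced ones, or at least 23.1-fold higher if the normal pair is set to a floor of 3 counts. The median of the list is the same with Oas1a at that bound. Oas1a, Oas2 and Oas3 had enough reads only through the induced libraries, so a rise was nearly fixed for them. In DESeq2 5 Oas genes rose. Oasl2 was at 3.19 and 2.70 CPM in the normal libraries and 40.2 and 41.95 CPM in the induced ones, and Oas3 at 0.500 and 0.345 CPM in the normal libraries and 7.36 and 6.42 CPM in the induced ones (log2 fold change 4.02, SE 0.28, adjusted p = 1.53e-16). Related Oas copies can share reads, so the split between them is uncertain.

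Of 32 tested antiviral effectors 31 rose, 27 of them by the test against 1.5-fold, and the exonuclease gene Isg20 did not pass (-0.12). The median of the list was 1.78. In DESeq2 30 of the effectors rose and 21 passed the test against 1.5-fold. Ifi44 was at 0.938 and 1.03 CPM in the normal libraries and 19.97 and 19.2 CPM in the induced ones (log2 fold change 4.30, SE 0.17, adjusted p = 5.48e-25). Usp18, the protease that strips ISG15 from proteins, was at 0.938 and 0.919 CPM in the normal libraries and 8.89 and 8.29 CPM in the induced ones. Isg15 itself, the ubiquitin-like modifier, rose from 2.19 ± 0.00474 to 14.4 ± 1.76 CPM. Ifitm1, which hinders viral entry at membranes, was at 0.125 and 0.460 CPM in the normal libraries and 4.24 and 4.69 CPM in the induced ones, while its relative Ifitm3 rose by 1.45 on the log2 scale from a level of 83.3 and 89.6 CPM. Rsad2 (viperin) had 3 counts over the normal libraries and 44 over the induced ones, a ratio of 15.9 with a 95% counting interval from 5.09 to 79.9.

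The Ifit genes, whose proteins bind viral RNA ends, did not move together. Ifit1 was at 13.3 and 12.7 CPM in the normal libraries and 48.7 and 53.3 CPM in the induced ones (log2 fold change 1.97, SE 0.08, adjusted p = 2.29e-24), and Ifit3 (1.20), Ifit3b (1.34) and Ifit1bl1 (1.06) also rose. Ifit1 was clearly higher in both induced libraries. In contrast, Ifit2 was at 79.8 and 82.5 CPM in the normal libraries and 70.7 and 73.5 CPM in the induced ones, a small fall (log2 fold change -0.17, SE 0.05, adjusted p = 0.0075) that did not pass in DESeq2 or when normal library 1 (-0.20) or normal library 2 (-0.15) was left out. The call of Ifit1bl1 was lost in DESeq2, without a filter and without normal library 1 (0.60), induced library 1 (0.90) or induced library 2 (1.19). Ifit1bl2 did not pass, at 0.694 ± 0.169 CPM without and 1.01 ± 0.0982 CPM with induction.

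Interferon-induced GTPases rose as well. Of 16 tested guanylate-binding proteins and immunity-related GTPases, which attack vacuoles of intracellular microbes, 15 rose. Gbp5 did not pass (1.06), and the median was 1.66. In DESeq2 10 of the 16 rose. Gbp2 was at 17.9 and 19.2 CPM in the normal libraries and 37.2 and 37.99 CPM in the induced ones (log2 fold change 1.02, SE 0.08, adjusted p = 9.63e-15). Irgm2 was at 4.32 and 4.08 CPM in the normal libraries and 23.4 and 23.6 CPM in the induced ones (log2 fold change 2.48, SE 0.12, adjusted p = 7.15e-22), and Iigp1 and Ifi47 rose by 3.40 and 2.41 from under 1 CPM. Each of these 4 genes was higher in both induced libraries than in either normal one.

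Sensors of nucleic acids were raised as well, with 10 of 13 tested genes higher and none lower. Zbp1, which senses Z-form nucleic acid, was at 1.13 and 1.15 CPM in the normal libraries and 13.8 and 13.1 CPM in the induced ones (log2 fold change 3.56, SE 0.18, adjusted p = 5.28e-21), and Dhx58, a relative of RIG-I, rose from 1.77 ± 0.0643 to 7.55 ± 0.896 CPM. Ddx58 (RIG-I) and Ifih1 (MDA5), sensors of viral RNA, rose by 1.05 and 1.246. Aim2, Mavs and Cgas did not pass (-0.25, -0.01 and 0.20). By the test against 1.5-fold 7 sensors passed, but 4 without normal library 1 and 3 in DESeq2.

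Genes of the signalling proteins upstream had a median of 0.56. Of 19 tested interferon receptor, JAK, STAT and IRF genes 12 rose and Ifngr2 (-0.23) and Jak1 fell. The call of Jak1, a small fall (-0.13), was lost without normal library 2 (-0.11). Irf7, the factor that amplifies type I interferon, was at 1.75 and 1.38 CPM in the normal libraries and 8.25 and 8.22 CPM in the induced ones (log2 fold change 2.40, SE 0.19, adjusted p = 2.86e-14). Irf9, a DNA-binding factor of the interferon response, was at 12.95 and 12.5 CPM in the normal libraries and 37.9 and 31.1 CPM in the induced ones (log2 fold change 1.45, SE 0.09, adjusted p = 2.07e-17). Stat2 (0.96) and the receptor gene Ifnar2 (0.83) rose too. Transcripts of Ifnb1, the gene of interferon beta, were too few to be tested.

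The promoters of these genes are where ISRE matches were sought. RefSeq promoter windows of 300 bases, 250 before and 50 after the start (GRCm38.p6), matched 11221 of the tested genes by symbol. The motif, GAAA followed after any 2 bases by GAAA again, was searched on both strands with overlaps allowed. It stood in 3.03% of all windows. It was in 13.3% of the 315 windows of genes higher by the test against 1.5-fold and in 4.44% of the 270 of genes lower. By family, 9 of 10 windows of the GTPases held a match, 5 of 6 of the Ifit genes, 3 of 5 of the Oas genes, 8 of 23 of the effectors, 3 of 9 of the sensors and 5 of 17 of the antigen presentation genes. The windows of Irf7, Irf9 and Tap1, which rose too, held none. These lists were gathered as interferon-induced genes, so such shares describe them and are no independent evidence. Stretches upstream of the start are printed for 7 raised genes, picked because their windows hold a match, to show how the matches differ in number and strand. The capitals mark the match, or overlapping matches, and each is on the strand of the gene, 5′ to 3′ (Oas1a at chr5:120907526-120907575, minus strand; Isg15 at chr4:156200845-156200926, minus strand; Ifit1 at chr19:34640755-34640843, plus strand; Ifit3 at chr19:34583343-34583446, plus strand; Gbp3 at chr3:142559969-142560043, plus strand; Irgm1 at chr11:48871421-48871480, minus strand; Igtp at chr11:58199492-58199555, plus strand).
Oas1a: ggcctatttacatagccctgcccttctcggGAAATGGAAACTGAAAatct
Isg15: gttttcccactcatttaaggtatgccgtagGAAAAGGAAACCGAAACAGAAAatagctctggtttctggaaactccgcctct
Ifit1: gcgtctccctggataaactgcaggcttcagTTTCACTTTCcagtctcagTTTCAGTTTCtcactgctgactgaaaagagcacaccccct
Ifit3: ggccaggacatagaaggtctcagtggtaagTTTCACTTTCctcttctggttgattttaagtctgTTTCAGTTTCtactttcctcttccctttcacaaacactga
Gbp3: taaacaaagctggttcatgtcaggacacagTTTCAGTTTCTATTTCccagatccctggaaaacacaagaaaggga
Irgm1: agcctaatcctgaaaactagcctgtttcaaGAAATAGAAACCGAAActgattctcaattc
Igtp: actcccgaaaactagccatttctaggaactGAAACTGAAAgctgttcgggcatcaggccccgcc
Oas1a, Isg15, Irgm1 and Igtp carry the letters on the strand of the gene, and Ifit1, Ifit3 and Gbp3 on the other strand. Ifit1 and Ifit3 each show 2 separate matches, and Isg15 shows 3 that overlap. Among them Gbp3 rose by 1.74, Irgm1 by 1.45 and Igtp by 2.27. A match is a description of letters, not a measured binding site. Among all 340 tested genes with a match in the window, 98 rose (28.8%) and 56 fell (16.5%), beside 21.6% and 19.8% of all genes with a window, so most genes with these letters did not pass upward.

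**Figure D3:**
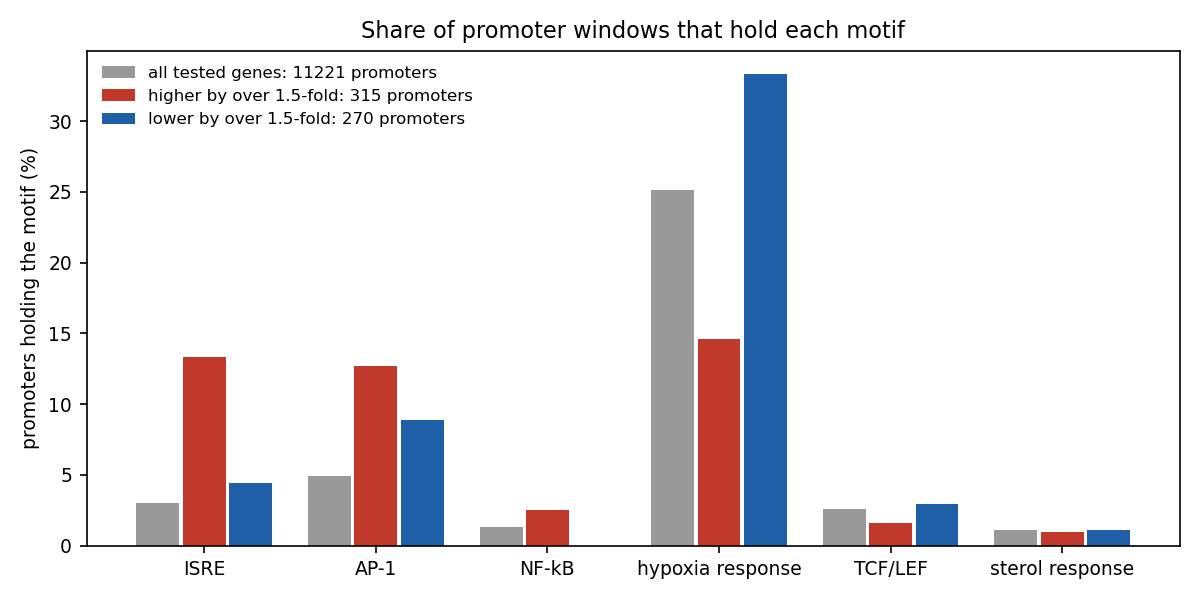
Percent of 300-base promoter windows that hold each motif, for all tested genes with a window (11221), genes higher by the test against 1.5-fold (315) and genes lower (270). ISRE and AP-1 matches are most frequent among the higher genes. Among the lower genes they also exceed the share of all windows (4.44% against 3.03% and 8.89% against 4.95%). The short hypoxia response letters are most frequent among the lower genes, while TCF/LEF matches lie within 1.59% to 2.96% in all 3 sets.

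Other motifs were counted in the same windows. The AP-1 letters TGANTCA stood in 4.95% of all windows, in 12.7% of those of higher genes and in 8.89% of those of lower genes. The NF-kB motif, GGGA followed after any 2 bases by TTCC, stood in 1.34%, 2.54% and 0%. For the letters CTTTGAT, bound by TCF/LEF proteins, the shares were 2.59%, 1.59% and 2.96%. By list, the NF-kB motif stood in 2 of 9 windows of chemokine genes. It stood in 1 of 18 of NF-kB subunit and feedback genes and in 0 of 13 of acute phase genes. No difference between these shares was tested.

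Genes of MHC class I display rose by smaller amounts. Of 22 tested antigen presentation genes 17 rose and none fell, with a median of 0.72. H2-Q4, a class I heavy chain gene, was at 15.5 and 14.3 CPM in the normal libraries and 31.2 and 31.6 CPM in the induced ones (log2 fold change 1.08, SE 0.09, adjusted p = 2.42e-14). B2m, the light chain of class I, was at 292 and 293 CPM in the normal libraries and 319 and 356 CPM in the induced ones (log2 fold change 0.21, SE 0.04, adjusted p = 3.33e-05). The peptide transporter gene Tap1 rose by 1.00 and Cd74, the class II invariant chain, by 1.66 from a low level (1.13 ± 0.101 to 3.58 ± 0.682 CPM). By the test against 1.5-fold 7 of them passed, but 4 without normal library 1 and 2 in DESeq2. Heavy chain genes resemble each other and can share reads, and 29.0% of the exon bases of Tapbp (0.51) overlap other genes.

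Acute phase proteins, secreted during infection and injury, rose nearly as a whole. Of 18 tested members 17 rose and only Hpx, at 0.396 ± 0.236 CPM without and 0.786 ± 0.112 CPM with induction, did not pass, with a median of 2.35. Saa3, a serum amyloid A protein, was at 33.8 and 34.2 CPM in the normal libraries and 409 and 416 CPM in the induced ones (log2 fold change 3.60, SE 0.05, adjusted p = 1.57e-43). Hp, the gene of the haemoglobin scavenger haptoglobin, was at 22.7 and 21.9 CPM in the normal libraries and 240.4 and 228 CPM in the induced ones (log2 fold change 3.39, SE 0.06, adjusted p = 1.12e-39). Ptx3, a pattern recognition protein, was at 253 and 253 CPM in the normal libraries and 699 and 732 CPM in the induced ones (log2 fold change 1.497, SE 0.03, adjusted p = 4.64e-34). In all 3 genes both induced libraries lay far above both normal ones. All 6 Serpina3 genes of the list, a cluster of protease inhibitors, rose, by 1.99 to 2.79, with Serpina3n at 44.9 and 48.8 CPM in the normal libraries and 252 and 257 CPM in the induced ones. Related copies can share reads there too. Saa1 had 0 counts in both normal libraries and 18 and 10 with induction, or at least 10.1-fold higher with the same floor, and the median of the list is the same with Saa1 at that bound. Orm1 had 3 counts in normal and 48 in induced cells, a ratio of 17.3 with a counting interval from 5.58 to 86.9.

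Complement genes moved both ways. C3, the protein on which all routes of complement activation meet, was at 1598 and 1597 CPM in the normal libraries and 4235 and 4261 CPM in the induced ones (log2 fold change 1.41, SE 0.03, adjusted p = 1.83e-36). C4b, of the classical route, was at 9.45 and 8.50 CPM in the normal libraries and 50.7 and 46.7 CPM in the induced ones (log2 fold change 2.44, SE 0.09, adjusted p = 2.14e-26). Cfb, of the alternative route, rose by 2.74, but 79.5% of its exon bases overlap another gene on the same strand. Cd55, which shields cells from complement, rose by 1.56. On the other side, Colec12, a collectin of the cell surface, was at 636 and 624 CPM in the normal libraries and 273 and 291 CPM in the induced ones (log2 fold change -1.16, SE 0.04, adjusted p = 1.33e-29) and Masp1, a protease of the lectin route, was at 35.8 and 37.97 CPM in the normal libraries and 12.3 and 12.5 CPM in the induced ones (log2 fold change -1.57, SE 0.09, adjusted p = 9.28e-20). Of 15 tested genes 5 rose and 4 fell (2 in DESeq2), so the median of -0.02 hides changes of over 1 log2 unit in each direction.

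Chemokines and cytokines were raised in part. Cxcl5, a neutrophil attractant, was at 103 and 105 CPM in the normal libraries and 339.9 and 361 CPM in the induced ones (log2 fold change 1.75, SE 0.04, adjusted p = 1.23e-33). Ccl11 (eotaxin) was at 0.250 and 0.345 CPM in the normal libraries and 5.48 and 4.69 CPM in the induced ones (log2 fold change 4.06, SE 0.32, adjusted p = 1.65e-14) and Cxcl10, an attractant of T cells, rose by 2.09 from 0.438 and 0.517 CPM. Cxcl1, another neutrophil attractant, rose from 100.1 ± 3.71 to 196 ± 7.44 CPM, whereas Ccl7 did not pass (0.09). Of 14 chemokine genes tested, 6 rose and Ccl5 and Ccl25 fell. Neither fall was called without induced library 1 (-0.41 and -0.24) or in DESeq2, and Ccl25 was also lost without normal library 1 (-0.32) or normal library 2 (-0.24).

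Among cytokines and growth factors 7 of 18 tested rose and 6 fell. Il6 was at 1.94 and 1.61 CPM in the normal libraries and 25.1 and 29.3 CPM in the induced ones (log2 fold change 3.93, SE 0.15, adjusted p = 5.65e-26), and Csf3, the granulocyte growth factor, was at 0.500 and 0.575 CPM in the normal libraries and 4.71 and 4.11 CPM in the induced ones (log2 fold change 3.02, SE 0.29, adjusted p = 6.67e-12). Both were low without induction and higher in both induced libraries. Hgf, the hepatocyte growth factor, rose from 33.1 ± 0.885 to 78.2 ± 3.53 CPM and Csf1, a macrophage growth factor, from 403 ± 8.16 to 661 ± 5.85 CPM. In the other direction, Il1rl1, the interleukin 33 receptor with a secreted decoy form, was at 535 and 538 CPM in the normal libraries and 194 and 191 CPM in the induced ones (log2 fold change -1.48, SE 0.04, adjusted p = 2.18e-33). Bdnf, a neurotrophin, was at 61.5 and 60.4 CPM in the normal libraries and 29.1 and 26.2 CPM in the induced ones (log2 fold change -1.13, SE 0.07, adjusted p = 8.7e-19), and Hbegf, a ligand of the EGF receptor, at 35.3 and 34.6 CPM in the normal libraries and 15.5 and 16.7 CPM in the induced ones (log2 fold change -1.12, SE 0.08, adjusted p = 2.03e-15). Tnf and Il1b had too few reads to be tested.

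Genes of receptors that receive such signals were raised more often than lowered. Of 21 tested Toll-like, interleukin and TNF receptor and adaptor genes 15 rose and 2 fell, with a median of 0.52. Tlr2, the receptor of bacterial lipoproteins, was at 12.3 and 12.4 CPM in the normal libraries and 36.7 and 36.3 CPM in the induced ones (log2 fold change 1.56, SE 0.09, adjusted p = 8.46e-20). Il6st (gp130), the shared signal chain of interleukin 6 receptors, was at 832 and 829 CPM in the normal libraries and 1815 and 1863 CPM in the induced ones (log2 fold change 1.15, SE 0.03, adjusted p = 5.13e-32). Both were higher in each induced library. Traf6, the ubiquitin ligase downstream of MYD88, was at 86.5 and 90.2 CPM in the normal libraries and 44.6 and 50.3 CPM in the induced ones (log2 fold change -0.90, SE 0.06, adjusted p = 1.64e-17), and Il1r1 fell by 0.23. NF-kB subunit and feedback genes rose in 14 of 22 cases and fell in 2, but their median was 0.25. Nfkbie, an inhibitor of NF-kB, was at 14.6 and 15.1 CPM in the normal libraries and 27.3 and 31.6 CPM in the induced ones (log2 fold change 0.98, SE 0.09, adjusted p = 1.94e-12), Nfkb1 rose by 0.45 and Rel fell by 0.49. The feedback gene Tnfaip3 (A20) did not pass (0.14).

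The prostaglandin enzymes Ptgs2 and Ptges moved apart. Ptgs2 (COX-2), which makes the precursor of all prostaglandins, was at 539 and 547 CPM in the normal libraries and 202 and 219 CPM in the induced ones (log2 fold change -1.37, SE 0.04, adjusted p = 2.6e-31). Ptges, which turns that precursor into prostaglandin E2, was at 29.2 and 32.9 CPM in the normal libraries and 51.01 and 46.997 CPM in the induced ones (log2 fold change 0.66, SE 0.07, adjusted p = 9.59e-11). Of 11 tested genes 7 rose and 4 fell, but 3 rose without normal library 1, without normal library 2 or in DESeq2.

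**Figure D4:**
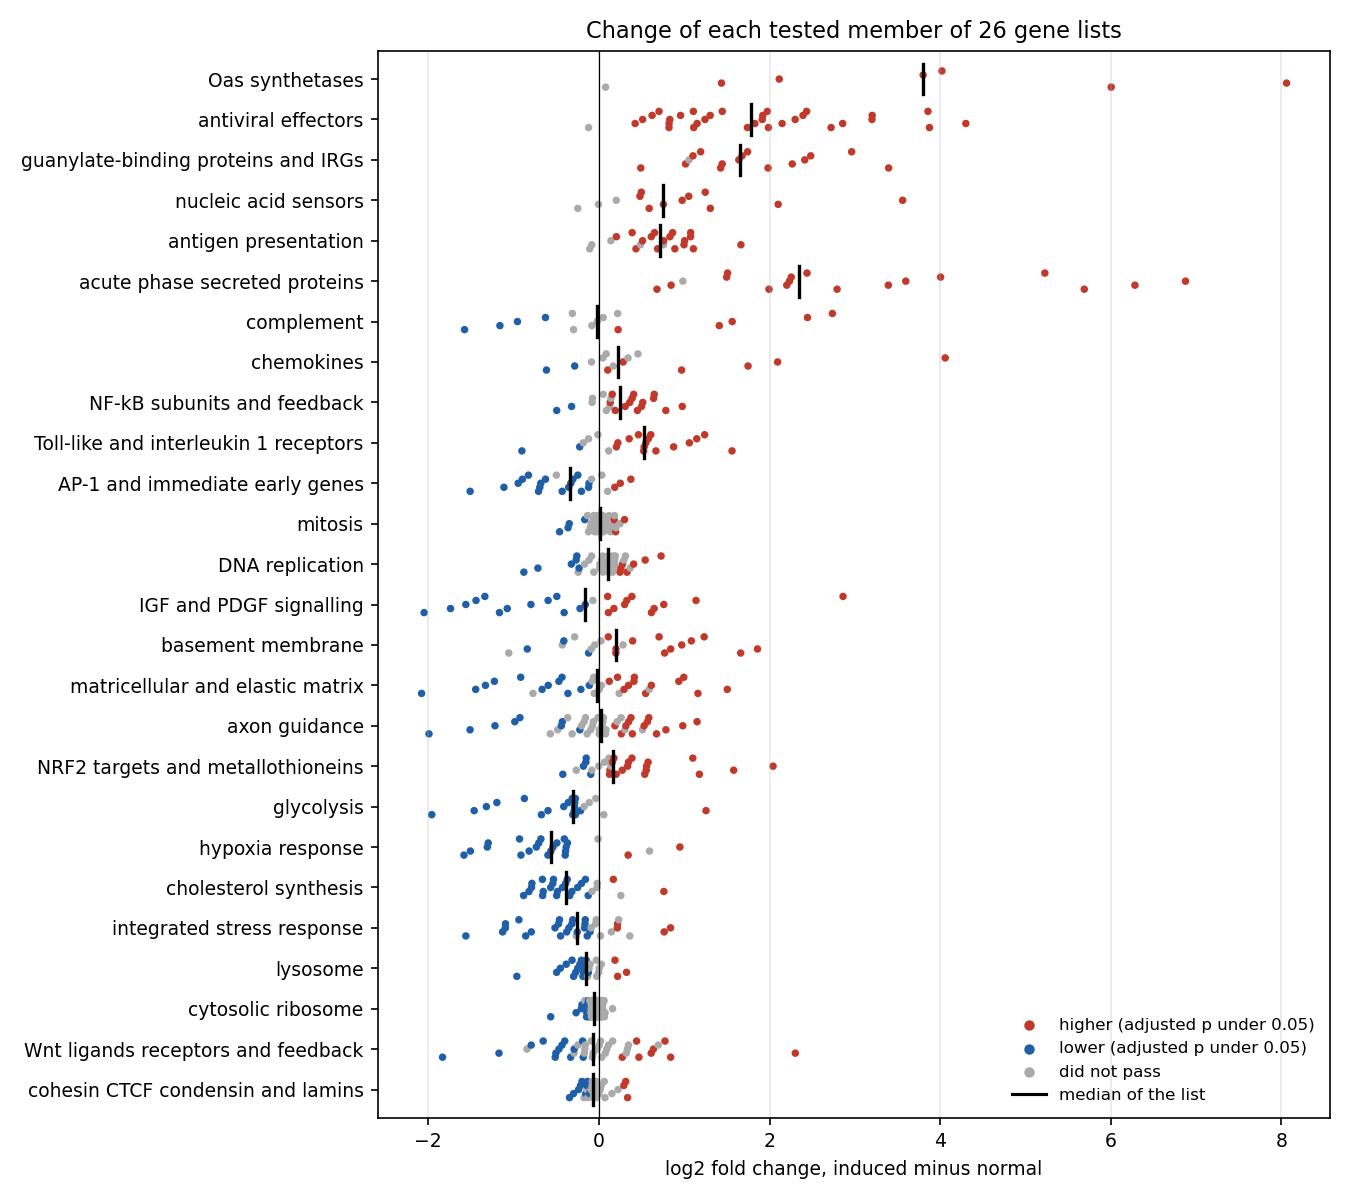
Log2 fold change, induced minus normal, of each tested member of 26 gene lists; colours give the call at an adjusted p under 0.05 and black bars the median of a list. Interferon and acute phase lists lie to the right of 0, hypoxia response, glycolysis, cholesterol and immediate early lists to the left, and matrix, growth factor and guidance lists spread to both sides; the rightmost points are the fitted values of Oas1a and Saa1, which are no bounds.

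Immediate early genes, the transcription factors that growth factors induce within minutes, were lower. Of 24 tested members 17 fell and 3 rose (Egr2, Klf4 and Ier5), with a median of -0.34. Fosb, an AP-1 subunit, was at 240.2 and 245 CPM in the normal libraries and 87.1 and 83.2 CPM in the induced ones (log2 fold change -1.51, SE 0.04, adjusted p = 3.01e-30). Fosl2, another subunit, was at 518 and 511 CPM in the normal libraries and 322 and 313 CPM in the induced ones (log2 fold change -0.69, SE 0.03, adjusted p = 1.19e-21). Both induced libraries lay below both normal ones. Jun, Fos and Myc fell by 0.90, 0.83 and 0.71 on the log2 scale, and Klf2 by 0.95. Egr1 moved least among those that fell, at -0.12, and lost its call without normal library 1 (-0.10). Klf4 rose by 0.25 and Ier5 by 0.37. Egr2 rose by 0.19, a call lost without normal library 2 (0.17).

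Feedback genes of ERK signalling fell and rose. Dusp4 and Dusp10, phosphatases of MAP kinases, fell from 72.8 ± 2.01 to 27.96 ± 1.52 CPM and from 88.5 ± 5.04 to 39.1 ± 0.0216 CPM, and Dusp1 fell by 0.80. Errfi1, an inhibitor of the EGF receptor, was at 78.5 and 78.6 CPM in the normal libraries and 134 and 140.3 CPM in the induced ones (log2 fold change 0.80, SE 0.05, adjusted p = 1.01e-18), and Spry4 rose by 0.78. In all, 7 of 20 tested genes fell and 4 rose.

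Growth factor systems changed gene by gene. Of 25 tested IGF, PDGF, FGF and receptor genes 11 rose and 13 fell, which leaves 1, Irs2 (-0.07), that did not pass. Pappa2, which frees IGF from its binding proteins, was at 22.1 and 21.4 CPM in the normal libraries and 5.48 and 4.97 CPM in the induced ones. Its relative Pappa was at 700.1 and 702 CPM in the normal libraries and 305 and 320.1 CPM in the induced ones (log2 fold change -1.17, SE 0.03, adjusted p = 3.15e-30). Stc2, a stanniocalcin that inhibits these proteases, was at 21.3 and 22.002 CPM in the normal libraries and 6.36 and 8.51 CPM in the induced ones (log2 fold change -1.56, SE 0.12, adjusted p = 1.34e-15). Both the proteases and the inhibitor were lower in every induced library. Igfbp4, a binding protein that Pappa cleaves, was at 2.63 and 2.87 CPM in the normal libraries and 19.7 and 20.5 CPM in the induced ones (log2 fold change 2.86, SE 0.14, adjusted p = 4.56e-22), and Igf1 was at 24.3 and 26.8 CPM in the normal libraries and 53.5 and 59.6 CPM in the induced ones (log2 fold change 1.14, SE 0.07, adjusted p = 5.73e-18). These 2 were higher in both induced libraries. Receptors of other growth factors fell: Fgfr2 from 132 ± 1.88 to 39.4 ± 0.0173 CPM, Met, the receptor of Hgf, by 1.07 and Egfr by 0.49. The PDGF receptor gene Pdgfra rose by 0.39 and Pdgfrb fell by 0.22.

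Mitosis genes had a median near 0. Of 34 mitosis genes 3 rose and 4 fell, with a median of 0.01, and Mki67, the Ki-67 proliferation antigen, was at 369 ± 7.56 CPM without and 357 ± 0.337 CPM with induction (log2 fold change -0.05, adjusted p = 0.313). Without induced library 1, 2 mitosis genes fell. Of 40 DNA replication genes 7 rose and 6 fell (12 rose without induced library 2, and 3 fell in DESeq2). Cdt1, which licenses origins, was at 49.4 and 48.3 CPM in the normal libraries and 27.4 and 25.5 CPM in the induced ones (log2 fold change -0.88, SE 0.07, adjusted p = 1.62e-14), and Tyms, thymidylate synthase, rose from 17.7 ± 0.00813 to 25.8 ± 0.788 CPM. The D cyclins moved apart. Ccnd1 was at 69.8 and 68.02 CPM in the normal libraries and 146 and 151 CPM in the induced ones (log2 fold change 1.11, SE 0.05, adjusted p = 1.7e-23), with 23.4% of its exon bases overlapped by an antisense gene, and Ccnd2 was at 587 and 581 CPM in the normal libraries and 402 and 412 CPM in the induced ones (log2 fold change -0.52, SE 0.03, adjusted p = 8.52e-18). Cdkn1b (p27) fell by 0.47 and Cdkn1a (p21) by 0.25.

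Genes of cell death changed in both directions. Of 26 tested p53 targets 8 rose and 8 fell, but 5 rose without normal library 1 and 4 in DESeq2. Fas, a death receptor, was at 33.1 and 33.7 CPM in the normal libraries and 64.3 and 69.3 CPM in the induced ones (log2 fold change 1.00, SE 0.06, adjusted p = 9.62e-18), and Plk2, a polo-like kinase, was at 598 and 585 CPM in the normal libraries and 368 and 374 CPM in the induced ones (log2 fold change -0.67, SE 0.03, adjusted p = 1.28e-21). In the Bcl2 family 6 of 14 rose and 4 fell, or 2 fell without normal library 2 or induced library 1. The largest rise there was of Bmf, a pro-death BH3 protein, from 10.3 ± 0.157 to 28.5 ± 1.49 CPM, followed by pro-death Bid (0.97) and the protective Bcl2l1 (0.90), while the protective Mcl1 fell by 0.26.

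Basement membrane genes leaned upward. Of 22 tested members 12 rose and 3 fell, with a median of 0.20. Col4a1 and Col4a2, the paired chains of type IV collagen that share a promoter region, rose together. Col4a1 was at 461 and 446 CPM in the normal libraries and 1678 and 1611 CPM in the induced ones, and Col4a2 at 299 and 299 CPM in the normal libraries and 977 and 916 CPM in the induced ones (log2 fold changes 1.86 and 1.66, SE 0.03 and 0.03). Per kilobase of exon Col4a1 went from 60.8 to 220.3 CPM per kb and Col4a2 from 45.2 to 143 CPM per kb. Nid1, which links laminin to collagen IV, was at 2007 and 1984 CPM in the normal libraries and 4639 and 4746 CPM in the induced ones (log2 fold change 1.23, SE 0.03, adjusted p = 2.97e-34). In all 3 genes the induced libraries lay well above both normal ones. Lama2, a laminin chain, fell from 157 ± 4.36 to 88.001 ± 1.34 CPM.

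Other matrix genes moved to both sides. Of 28 fibrillar collagen and crosslinking genes 12 rose and 9 fell. Col5a3, a chain of type V collagen, was at 23.02 and 26.8 CPM in the normal libraries and 78.5 and 70.9 CPM in the induced ones (log2 fold change 1.58, SE 0.07, adjusted p = 2.33e-23), and Col5a1 rose by 0.85. Plod2, an enzyme that prepares collagen for crosslinking, was at 248 and 243 CPM in the normal libraries and 84.5 and 95.9 CPM in the induced ones (log2 fold change -1.45, SE 0.05, adjusted p = 1.3e-28). The prolyl hydroxylase genes P4ha1 and P4ha2 fell by 0.54 and 0.60. Of 32 matricellular and elastic matrix genes 12 rose and 12 fell. Beside Postn, the largest falls were of Ccn3, from 7.43 ± 0.194 to 2.76 ± 0.484 CPM, and of Tnc, the gene of tenascin C, from 380.2 ± 4.84 to 151 ± 3.24 CPM, and Fn1 (fibronectin) fell from 11619 ± 178 to 8609 ± 4.84 CPM. Fmod (fibromodulin), a small proteoglycan, rose by 1.505, Fbn1 (fibrillin 1) by 1.16 and Spp1 (osteopontin) by 0.99, with 20.1% of the exon bases of Fbn1 overlapped by an antisense gene.

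Matrix proteases and their inhibitors rose in 11 of 32 tested cases and fell in 7. Mmp9, a gelatinase, was at 19.3 and 17.2 CPM in the normal libraries and 66.7 and 65.4 CPM in the induced ones (log2 fold change 1.86, SE 0.07, adjusted p = 1.61e-25), and Timp1, an inhibitor of such proteases, was at 43.2 and 40.6 CPM in the normal libraries and 84.8 and 77.6 CPM in the induced ones (log2 fold change 0.96, SE 0.06, adjusted p = 5.19e-18). Both were higher in each induced library. Mmp2, the other gelatinase, fell by 0.37 and Plat, a plasminogen activator, by 0.81.

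Adhesion and cytoskeletal genes included Tes, described above, but few large rises. Of 34 actin and focal adhesion genes 13 rose and 13 fell, or 8 fell without normal library 1. Lmod1, an actin nucleator of smooth muscle, was at 4.75 and 4.48 CPM in the normal libraries and 15.8 and 15.1 CPM in the induced ones (log2 fold change 1.75, SE 0.13, adjusted p = 1.53e-15). Actn1 rose by 0.49 and Fhl2 fell by 0.68. Of 18 integrin genes 5 rose and 4 fell: Itga7, a laminin receptor, was at 6.01 and 7.24 CPM in the normal libraries and 16.2 and 14.8 CPM in the induced ones and Itga8 at 26.1 and 28.8 CPM in the normal libraries and 10.7 and 11.2 CPM in the induced ones (log2 fold changes 1.22 and -1.33). YAP target genes fell in 7 of 18 cases, among them Ankrd1 (-0.75) and Ccn2 (-0.59, with 23.2% of its exon bases overlapped by an antisense gene), and rose in 5, or in 3 without normal library 2. Of 15 tested genes of immunoglobulin and cadherin adhesion molecules 5 fell, or 3 without normal library 1 or normal library 2, and 2 rose. Opcml fell most, Alcam fell by 1.86 and Vcam1, a leukocyte adhesion receptor, was at 167 and 168 CPM in the normal libraries and 351 and 365 CPM in the induced ones (log2 fold change 1.09, SE 0.04, adjusted p = 3.03e-27).

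Guidance molecules, which steer growing axons and migrating cells, changed in 21 of 44 tested cases, 13 up and 8 down. That is 47.7%, beside 36.8% of all tested genes. Sema5a fell from 37.3 ± 0.128 to 13.1 ± 0.998 CPM and Plxna2 from 101 ± 5.47 to 43.4 ± 2.49 CPM, and Plxna4 was at 27.3 and 26.9 CPM in the normal libraries and 6.66 and 6.99 CPM in the induced ones. Slit3, a repellent cue, was at 323 and 324 CPM in the normal libraries and 646 and 631 CPM in the induced ones (log2 fold change 0.98, SE 0.03, adjusted p = 1.26e-27), and the plexin gene Plxnb1 rose by 1.15. Not all class A plexins fell, as Plxna1 rose by 0.53.

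TGF-beta and BMP genes were split, with 11 of 41 higher (7 without normal library 2) and 10 lower. Fst (follistatin), which traps activins, was at 10.3 and 10.2 CPM in the normal libraries and 28.6 and 27.5 CPM in the induced ones (log2 fold change 1.45, SE 0.10, adjusted p = 3.12e-17). Id2, a BMP-induced inhibitor of basic helix-loop-helix factors, was at 57.7 and 55.6 CPM in the normal libraries and 24.03 and 26.7 CPM in the induced ones (log2 fold change -1.16, SE 0.07, adjusted p = 1.34e-18), whereas Id1 and Id3 rose by 0.35 and 0.41. Grem1, a BMP antagonist, fell from 1.80 ± 0.0237 to 0.327 ± 0.0466 CPM and Tgfb2 from 74.96 ± 0.0131 to 44.04 ± 1.02 CPM.

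Glycolysis genes fell almost as a whole. Of 22 tested entries, Aldoa being listed under 2 identifiers, 17 fell and Slc16a1 rose, with a median of -0.30. Hk2 (chromosome 6, 82725025 to 82774454, minus strand), which traps glucose in the cell, was at 587 and 591 CPM in the normal libraries and 154 and 149 CPM in the induced ones (log2 fold change -1.96, SE 0.04, adjusted p = 1.34e-37). Pfkfb3, which makes the activator of phosphofructokinase, was at 27.1 and 26.8 CPM in the normal libraries and 10.5 and 8.94 CPM in the induced ones (log2 fold change -1.46, SE 0.10, adjusted p = 1.06e-16), and Eno2, an enolase, was at 275 and 277 CPM in the normal libraries and 112 and 109 CPM in the induced ones (log2 fold change -1.32, SE 0.04, adjusted p = 4.36e-29). In these 3 genes the induced level was well under the normal one in every library. Some other enzymes had smaller values: Pkm fell by 0.29, Ldha by 0.27 and Gapdh by 0.21. The glucose transporter gene Slc2a1 fell by 0.67. Slc16a1 (MCT1), a carrier of lactate and pyruvate, moved the other way, at 105 and 113 CPM in the normal libraries and 257 and 264 CPM in the induced ones (log2 fold change 1.26, SE 0.04, adjusted p = 9.91e-28).

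Hypoxia response genes fell with them although Hif1a, the gene of the oxygen-regulated factor that drives the response, rose. Hif1a (chromosome 12, 73901375 to 73947530, plus strand) was at 633 and 621 CPM in the normal libraries and 1172 and 1249 CPM in the induced ones (log2 fold change 0.95, SE 0.03, adjusted p = 1.37e-27). Counts show the transcript and not the protein, which oxygen controls by degradation. Of 23 tested genes 19 fell and Hif1a and Adm rose, with a median of -0.56. Ankrd37 was at 42.1 and 39.8 CPM in the normal libraries and 13.02 and 14.4 CPM in the induced ones (log2 fold change -1.58, SE 0.08, adjusted p = 2.64e-20), with 26.4% of its exon bases overlapped by an antisense gene. Ero1l, an oxidase of the endoplasmic reticulum, was at 412 and 429 CPM in the normal libraries and 144 and 152 CPM in the induced ones (log2 fold change -1.51, SE 0.04, adjusted p = 3.39e-32), and Ndrg1 was at 269.6 and 266 CPM in the normal libraries and 105 and 111 CPM in the induced ones (log2 fold change -1.31, SE 0.04, adjusted p = 1.29e-28). Each of these was lower in both induced libraries. The oxygen-sensing hydroxylases Egln1 and Egln3, which mark HIF for destruction, fell by 0.70 and 0.93, and Vegfa, the vessel growth factor, by 0.68. Adm rose by 0.34.

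**Figure D5:**
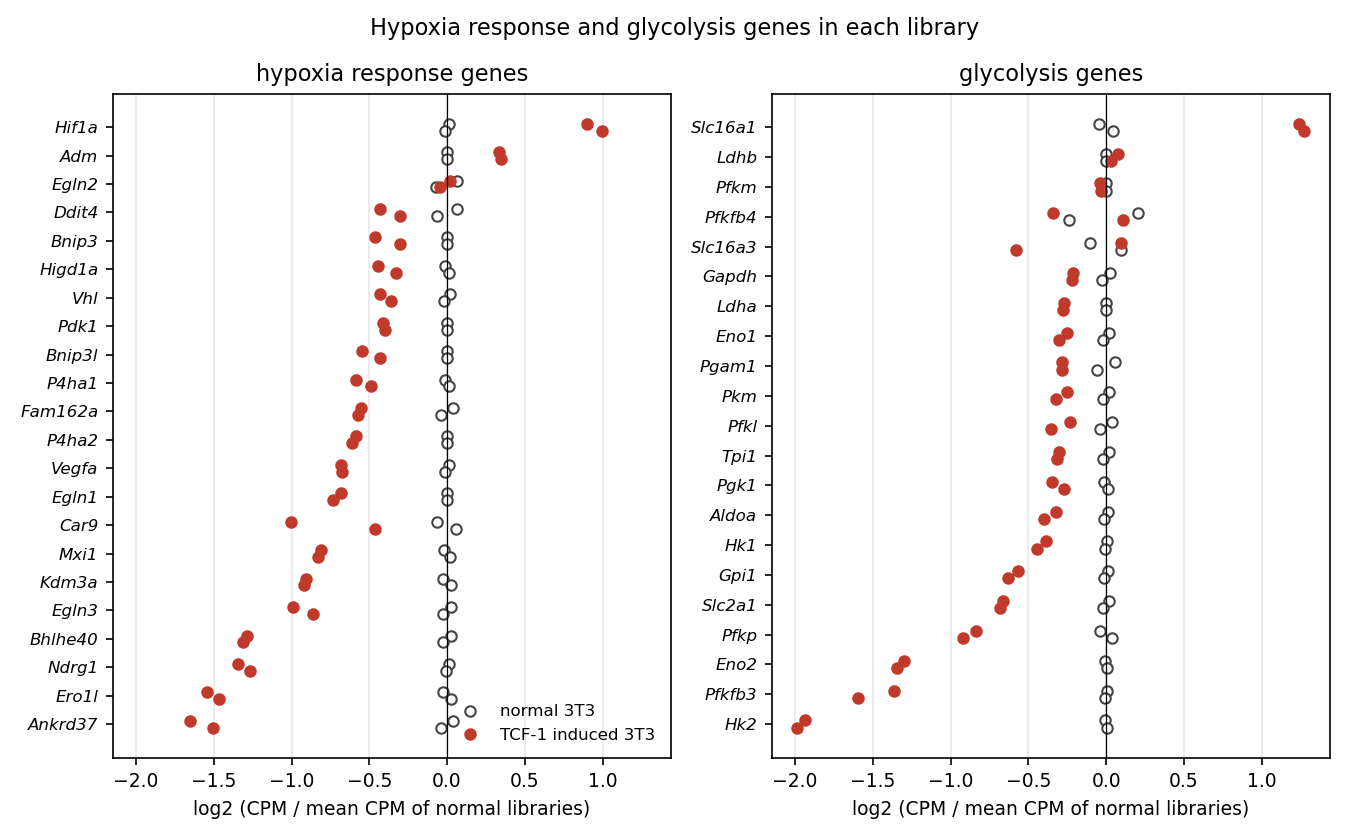
Log2 ratio of each library's CPM to the mean of the normal libraries, for hypoxia response and glycolysis genes averaging 1 CPM or more; open points are normal and filled points induced libraries. Most genes lie left of 0 in both induced libraries, while Hif1a, Adm and Slc16a1 lie right of it.

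The letters ACGTG, the core bound by HIF and by other basic helix-loop-helix factors, stood in 25.1% of all promoter windows. They were in 12 of 18 windows of the hypoxia response list and in 10 of 22 of glycolysis genes. The first list was gathered as hypoxia response genes, so its share describes it and is no independent evidence. Among genes called by the test against 1.5-fold the letters were in 33.3% of windows of lower genes and in 14.6% of those of higher genes. Among all 2817 tested genes with the letters in the window, 18.9% rose and 23.8% fell, beside 21.6% and 19.8% of all genes with a window. Letters this short are common in any sequence and are no measured site. Stretches are shown for 4 of the genes that fell, as examples of the letters upstream of the start (Hk2 at chr6:82774472-82774536, minus strand; Pfkfb3 at chr2:11553955-11554019, minus strand; Ankrd37 at chr8:45999851-45999886, minus strand; Egln1 at chr8:124949288-124949352, minus strand; GRCm38.p6, RefSeq, 5′ to 3′ on the strand of the gene, match in capitals).
Hk2: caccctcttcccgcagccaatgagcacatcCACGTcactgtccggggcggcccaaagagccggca
Pfkfb3: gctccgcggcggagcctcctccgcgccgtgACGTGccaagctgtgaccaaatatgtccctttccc
Ankrd37: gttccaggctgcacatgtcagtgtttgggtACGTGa
Egln1: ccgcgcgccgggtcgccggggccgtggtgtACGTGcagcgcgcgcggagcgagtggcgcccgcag
Hk2 shows the letters on the other strand and the other 3 genes on the strand of the gene. In Ankrd37 they lie 2 bases from the start. In Egln3, which fell too and is not shown, they lie 225 bases from the start. The windows of Hk2 and Ankrd37 hold 2 matches each, of which 1 is shown.

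Lipid synthesis genes were lower too. Of 27 tested cholesterol synthesis and uptake genes 21 fell and 2 rose, with a median of -0.39. Insig1, which holds the sterol sensor in the endoplasmic reticulum, was at 130.3 and 135 CPM in the normal libraries and 68.7 and 75.4 CPM in the induced ones (log2 fold change -0.88, SE 0.05, adjusted p = 2.59e-19). Msmo1, a sterol methyl oxidase, was at 201 and 204 CPM in the normal libraries and 114 and 116 CPM in the induced ones (log2 fold change -0.82, SE 0.04, adjusted p = 7.23e-21). Ebp, a sterol isomerase, rose from 21.3 ± 0.0148 to 36.2 ± 0.519 CPM. Scap rose by 0.17, which did not pass in DESeq2 or on leaving out normal library 1 (0.20), normal library 2 (0.13) or induced library 1 (0.11). Among 20 fatty acid genes 9 fell and Elovl5 rose (2 rose without induced library 2). Fasn, the fatty acid synthase, was at 535 and 532 CPM in the normal libraries and 343 and 321 CPM in the induced ones (log2 fold change -0.68, SE 0.04, adjusted p = 5.1e-21), and Acsl3 was at 108 and 109 CPM in the normal libraries and 47.5 and 54.9 CPM in the induced ones (log2 fold change -1.09, SE 0.06, adjusted p = 8.58e-21). Srebf1, the gene of a factor that drives lipid synthesis, did not pass (0.14).

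Targets of the integrated stress response, which ATF4 switches on when amino acids run short, fell in 21 of 33 tested cases and rose in 4 (2 without normal library 2), with a median of -0.25. Vldlr, a lipoprotein receptor, was at 25.4 and 24.5 CPM in the normal libraries and 11.8 and 10.9 CPM in the induced ones, Aldh1l2, a folate enzyme of mitochondria, at 363 and 360.4 CPM in the normal libraries and 168 and 171 CPM in the induced ones, and both were lower in each induced library (log2 fold changes -1.13 and -1.10). Ddit3 (CHOP) fell by 0.86. Wars, the tryptophan tRNA ligase, which interferon gamma also induces, was at 41.4 and 41.3 CPM in the normal libraries and 73.2 and 67.04 CPM in the induced ones (log2 fold change 0.77, SE 0.06, adjusted p = 1.53e-14), and Asns rose by 0.22. Atf4 itself fell by 0.10, which did not pass in DESeq2 or on leaving out normal library 1 (-0.10) or normal library 2 (-0.10).

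Chaperones of the endoplasmic reticulum and heat shock genes had no common direction. Of 27 unfolded protein response genes 14 rose and 10 fell. Xbp1 rose from 61.8 ± 3.35 to 87.1 ± 0.251 CPM and Pdia6, a disulfide isomerase, by 0.47, while Dnajb9 fell by 0.57. Of 20 heat shock genes 6 rose, Dnajb4 most (0.92), and 6 fell, Hspa9 most (-0.58).

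Antioxidant and iron genes included large rises. Sod2, the superoxide dismutase of mitochondria, was at 86.1 and 82.1 CPM in the normal libraries and 331 and 362 CPM in the induced ones (log2 fold change 2.04, SE 0.04, adjusted p = 6.87e-35). Nqo1, a quinone reductase, was at 5.63 and 4.94 CPM in the normal libraries and 14.8 and 16.9 CPM in the induced ones (log2 fold change 1.58, SE 0.13, adjusted p = 2.95e-14). For both genes the induced libraries lay far above the normal ones. Gclm, a subunit of the enzyme that makes glutathione, rose from 42.1 ± 2.33 to 95.5 ± 0.980 CPM. Of 28 NRF2 target and metallothionein genes 17 rose, 11 of them without normal library 1, and 5 fell, or 1 without normal library 1 or normal library 2 or in DESeq2. Mt1, a metallothionein, fell from 435 ± 5.91 to 325 ± 11.4 CPM. In iron handling 9 of 21 genes rose, Lcn2 among them. Slc39a14, a metal importer, was at 68.3 and 68.2 CPM in the normal libraries and 168 and 169.9 CPM in the induced ones (log2 fold change 1.31, SE 0.05, adjusted p = 1.03e-26) and Fth1, the ferritin heavy chain, was at 1257 and 1238 CPM in the normal libraries and 2155 and 2306 CPM in the induced ones (log2 fold change 0.84, SE 0.03, adjusted p = 2.47e-26). Steap3, a ferric reductase, was at 285 and 274 CPM in the normal libraries and 152 and 154 CPM in the induced ones (log2 fold change -0.87, SE 0.04, adjusted p = 7.31e-23). In this list 5 genes fell, or 2 without normal library 1 or normal library 2, and 1 in DESeq2.

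Lysosome genes leaned downward, while genes of mitochondria and ribosomes had medians near 0. Of 27 lysosome genes 16 fell and 3 rose (1 without normal library 2), with a median of -0.15, and Gla, alpha-galactosidase A, was at 121 and 119.7 CPM in the normal libraries and 61.3 and 62.3 CPM in the induced ones (log2 fold change -0.96, SE 0.05, adjusted p = 1.19e-20). Over all tested genes 36.8% were called. Of 75 nuclear genes of the respiratory chain 6 rose and 10 fell (21.3% called), with a median of 0.03. Of 78 genes of the mitochondrial ribosome 13 rose and 5 fell (23.1% called), with a median of 0.08. These counts moved with the tool and with single libraries. In DESeq2 1 rose and 1 fell in the respiratory chain, and 2 rose and 1 fell in the mitochondrial ribosome. In the respiratory chain 2 rose and 4 fell without normal library 1, and 3 rose and 1 fell without normal library 2. In the mitochondrial ribosome 4 rose and 2 fell without normal library 2, and 2 fell without induced library 1. No cytosolic ribosomal protein gene of 83 rose and 14 fell, led by Rpl22l1 (-0.57), but 5 fell in DESeq2, 27 without induced library 2, 4 without normal library 1 and 6 without normal library 2, and 4 rose without induced library 1. All 37 genes of the mitochondrial genome are listed at 0 in the 4 libraries, so their transcripts were not analysed here.

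Partners of TCF-1 changed in both directions. Of 15 TCF/LEF family and partner genes 7 rose, Tcf7 included, and 5 fell. Ctnnb1, the gene of beta-catenin, was at 677 and 662 CPM in the normal libraries and 602 and 595 CPM in the induced ones, a fall of 0.16 (adjusted p = 4.99e-05). Tcf7l2, a relative of Tcf7, fell by 0.22, and the corepressor gene Tle6 was at 8.95 and 7.64 CPM in the normal libraries and 17.4 and 15.4 CPM in the induced ones (log2 fold change 1.00, SE 0.12, adjusted p = 9.38e-10). Without normal library 1 or induced library 1, 3 of these genes fell. Axin2, a widely used readout of beta-catenin with TCF proteins, was at 4.57 and 5.06 CPM in the normal libraries and 5.48 and 3.89 CPM in the induced ones and did not pass (log2 fold change -0.02, adjusted p = 0.953).

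Sfrp1 and Dkk3 moved furthest in the Wnt list, where 8 of 42 tested genes rose and 13 fell. In this list and in the Notch list 50% were called, beside 36.8% of all tested genes. Sfrp1, which binds Wnt proteins, was at 94.3 and 98.8 CPM in the normal libraries and 466 and 487 CPM in the induced ones (log2 fold change 2.30, SE 0.04, adjusted p = 1.08e-38). Dkk3, of the Dickkopf family, was at 40.98 and 38.4 CPM in the normal libraries and 10.3 and 12.1 CPM in the induced ones (log2 fold change -1.83, SE 0.09, adjusted p = 1.4e-21). The receptor gene Fzd8 rose by 0.77 and Fzd7 fell by 0.65. In the Notch list 5 of 24 rose and 7 fell, or 4 fell without normal library 1 or normal library 2. Notch1 was at 10.01 and 10.9 CPM in the normal libraries and 22.2 and 18.3 CPM in the induced ones (log2 fold change 0.96, SE 0.11, adjusted p = 3.1e-10) and Hes1, a repressor that Notch induces, at 24.3 and 25.9 CPM in the normal libraries and 47.4 and 51.6 CPM in the induced ones (log2 fold change 0.97, SE 0.07, adjusted p = 1.3e-15). Nrarp (-0.32) and Hes5 (-0.22), other genes that Notch induces, did not pass.

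Of the T lineage genes most had few reads. Among the 7 tested, Cd5 passed at 0.876 and 0.517 CPM in the normal libraries and 1.65 and 1.01 CPM in the induced ones, but not in DESeq2, without a filter, or when normal library 2 (0.63) or induced library 1 (0.55) was left out. Gata3, a factor of T cell commitment, was at 1.44 ± 0.0868 CPM without and 2.23 ± 0.0952 CPM with induction and did not pass (adjusted p = 0.0641). Bcl11b, another such factor, was at 0.780 ± 0.0470 CPM without and 1.20 ± 0.0335 CPM with induction and did not pass (adjusted p = 0.201). Cd247, a signal chain of the receptor, did not pass either (-0.10), and 60.3% of its exon bases overlap other genes.

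Of genes of the machinery of genome folding, which the series set out to study, 38.7% were called, beside 36.8% of all tested genes. None of them stayed under 1 CPM in every library, and the share called climbs with level. These shares therefore do not tell how often genes of like level passed. Of 31 cohesin, CTCF, condensin, lamin and HMG genes 3 rose and 9 fell, or 4 fell without normal library 2, with a median of -0.07. Lmnb1 (lamin B1) was at 81.5 and 85.02 CPM in the normal libraries and 103 and 101 CPM in the induced ones (log2 fold change 0.29, SE 0.05, adjusted p = 4.26e-06), and Hmga2, an architectural protein, at 230.2 and 235 CPM in the normal libraries and 179 and 200.5 CPM in the induced ones (log2 fold change -0.30, SE 0.04, adjusted p = 1.36e-07). Hmga1 and Hmgb1 rose by 0.34 and 0.31, and none of the 31 passed the test against 1.5-fold.

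A few genes went from near silence to a measurable level. Plet1, a surface protein of epithelial progenitors, had 1 and 0 counts in the normal libraries and 67 and 51 in the induced ones, a ratio of 127.7 with a counting interval from 22.5 to 5087. Psca, a surface protein of the Ly6 family, had 1 and 0 counts against 41 and 33, a ratio of 80.1 (interval 13.9 to 3206). Both wide intervals come from the single read in normal cells. Genes with at most 3 counts over the induced libraries were low in normal cells as well, the highest at 0.54 CPM on average. Tmem182 (8 and 10 counts against 1 and 2), Duox2 (11 and 6 against 1 and 2) and Gsc2 (6 and 11 against 1 and 1) led this group.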

How the data were processed

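The submitters' processing notes name STAR 2.5.0a, HTSeq 0.6.1 and GRCm38 without their roles. Which of them made the 3T3 files, the annotation release and the strand setting were not given in the sources used here. All 4 files hold raw counts per gene, as deposited by the authors. Libraries were grouped by their labels, 2 a group. Genes kept by filterByExpr were scaled by TMM and tested with edgeR 4.0.16 (R 4.3.3) by its robust quasi-likelihood test with Benjamini-Hochberg adjustment, and with glmTreat against 1.5-fold. The scripts were tested on simulated data. The alternatives were 2 other scalings, DESeq2 1.42.0, limma-voom 3.58.1, no filter, a filter on a mean under 1 CPM, a replicate block and leaving out each library.

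The lists and members were chosen with earlier results of these data known, so their counts are descriptions. Genes were named by rule: Tcf7, Lcn2 and Oas2, and the 12 largest rises and 12 largest falls at 5 CPM or more. Those rises and falls were taken among called genes without overlap between the groups, gene models left out. The rule also took, per list, the 3 largest called rises and falls at 1 CPM or more and the 2 most abundant members. Added to these were every member where at most 6 were tested, and genes near 0 in a group. Other genes named, among them Hp, Isg15, Jun, Fos, Myc, Axin2, Gata3, Pappa and members that did not pass, were chosen after their values were seen. Promoter windows are from RefSeq, and gene positions and overlaps from GENCODE M21. Results for a few genes are not reported here.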

Additional observations from a re-analysis of the deposited data

How the results depend on the processing

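No called gene named by rule reversed its direction in any of the 11 alternatives. DESeq2 called 1961 genes higher and 2012 lower, and 270 and 213 against 1.5-fold. It moved 25 of 112 list counts by over 1.5 times, the most of the 11 alternatives, and leaving out normal library 2 moved 23. The other scalings, limma-voom and both filters kept the counts of genes called within 1.5 times. Of the list counts, the fit without a filter moved 5. Scaling by DESeq2 size factors and the 1 CPM filter moved 1 each, and upper-quartile scaling and limma-voom moved 0. Over the genes shared with the reported test the median difference in log2 fold change was at most 0.0042. Leaving out 1 library gave 2344 to 3391 genes higher and 2409 to 3418 lower, and 391 to 468 and 325 to 435 against 1.5-fold, where the lone library of a group was assumed to vary like the other group. With a replicate block 3633 genes were higher and 3577 lower, and 508 and 459 against 1.5-fold. With it 10 DNA replication and 5 mitosis genes rose and 3 fatty acid genes rose. Deviations of libraries with the same number correlated at 0.044 over 15880 genes, so the numbers were not taken as pairs. Of 333 called genes named by rule, DESeq2 lost 49 and leaving out normal library 2 lost 42. With 2 libraries a group, spread is poorly known for any single gene, and levels under 1 CPM rest on few reads.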
